A study of Rattus norvegicus with 16 samples.

Results

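The Hedgehog signalling genes described here are 9 of the 31038 genes measured in the series. They were taken by symbol from the gene table of each library. They comprise the ligands Shh, Dhh and Ihh, the receptor Ptch1, the signal transducer Smo, the ligand-binding inhibitor Hhip and the transcription factors Gli1, Gli2 and Gli3. RNA was sequenced from rat sciatic nerve in 16 libraries that form 8 groups of 2. Purified Schwann cells and whole nerve were each taken uncrushed and 3, 5 or 7 days post-crush, with the crush made on postnatal day 18. The study names postnatal day 18 as its initial time point, so crushed nerves came from animals 3, 5 or 7 days older. Time after crush and age cannot be told apart. Uncrushed nerves had no sham operation and the matching stretch of them was taken, and from crushed nerves the piece distal to the crush was used. Schwann cells were isolated by immunopanning, in which dishes coated with antibodies to CD45 and Thy1 removed macrophages and fibroblasts before an O4 dish retained the Schwann cells.

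Each sample of either tissue pooled at least 10 nerves, so a replicate is a pool and not an animal, and the spread within a group is the spread between pools. The labels give no strain. Levels are given as normalised FPKM, which is RSEM's length-scaled expression value rescaled with the TMM library size of edgeR. They can be compared between genes because they are per length. Deposited FPKM, before this rescaling, lay 0.31 to 0.34 log2 units higher in crushed whole nerve relative to uncrushed. Changes are log2 fold changes ± SE of the rounded expected counts, and a gene is said to rise or fall only at an edgeR adjusted p below 0.05 over all genes tested. Depth was 10555067 to 27562637 expected counts per library.

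Hedgehog ligands are secreted proteins that bind Patched receptors. Unbound Patched holds Smoothened inactive, and ligand binding releases Smoothened, which lets Gli factors activate target genes in place of acting as repressors. Gli1, Ptch1 and Hhip are themselves targets in many tissues and are widely used as readouts. In peripheral nerve, Desert hedgehog is known as a Schwann cell product needed for the perineurium, the sheath around each nerve fascicle.

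The known Gli binding site was sought in the promoters because Ptch1 and Hhip are classical targets. RefSeq promoter records of build GRCr8 matched 6 of the 9 genes, namely Dhh, Ptch1, Smo, Hhip, Gli2 and Gli3. The 250 bases before each start were searched on both strands for the site GACCACCCA, which reads TGGGTGGTC on the opposite strand. The site was present in 1 of the 6, Ptch1, in its opposite-strand form, with its first letter 172 bases before the start. It was present in 113 of all 33469 promoter records, or 0.338%, and in 0 of the 36 records of other genes of the pathway. A match is only a run of letters and no match says only that these letters were absent from the window. The Ptch1 sequence (chr17:1555321-1555570, plus strand) is shown with the match in capitals, and Hhip (chr19:44767788-44768037, plus strand) is shown as the other classical target, without a match.
Ptch1: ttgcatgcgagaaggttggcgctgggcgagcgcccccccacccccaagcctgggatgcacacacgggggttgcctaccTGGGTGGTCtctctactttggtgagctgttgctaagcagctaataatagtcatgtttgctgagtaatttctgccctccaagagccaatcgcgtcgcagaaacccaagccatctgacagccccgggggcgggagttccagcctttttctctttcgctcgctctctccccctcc
Hhip: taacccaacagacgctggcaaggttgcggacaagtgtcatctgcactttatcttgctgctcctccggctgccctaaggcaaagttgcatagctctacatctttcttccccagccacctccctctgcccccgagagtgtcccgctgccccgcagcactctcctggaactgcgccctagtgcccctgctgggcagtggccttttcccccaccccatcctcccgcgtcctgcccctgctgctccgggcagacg

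Cell type markers set the frame for the comparison of tissues. Summed fibroblast markers (Col1a1, Dcn, Lum, Pdgfra, Fn1 and Thy1) lay between 149.5 and 320.5 normalised FPKM in the Schwann cell libraries and between 4991 and 5939 in whole nerve. Col1a2, also a fibroblast marker, ran from 0 to 285.4 within whole nerve and was left out of the sum. The 7 macrophage markers summed to between 2.55 and 12.8 in Schwann cells. In whole nerve they summed to between 149.8 and 165.6 uncrushed and between 523.8 and 532.9 at day 3. The macrophage sum there was between 318.3 and 344.1 at day 5 and between 332.1 and 335.6 at day 7. The 9 Schwann cell markers were present in every library. Their sum was 8835 to 9385 in uncrushed Schwann cells and 22360 to 26580 in uncrushed whole nerve, where 5 of 9 were called higher and 4 lower in Schwann cells. After crush it was 4118 to 6505 in Schwann cells and 2268 to 4664 in whole nerve, and none of the 9 was called lower in Schwann cells. The 5 perineurial markers summed to 115.2 to 115.5 in uncrushed and 56.0 to 63.5 in crushed Schwann cells and to between 158.2 and 279.0 in whole nerve, with Lypd2 at 0 in all libraries. The 5 pericyte and smooth muscle markers summed to 38.4 to 49.5 in uncrushed and 8.50 to 18.6 in crushed Schwann cells and to between 275.1 and 364.7 in whole nerve. Day 3 Schwann cell replicate 2 held more macrophage and endothelial signal than the other Schwann cell libraries, 16.9 summed over 12 genes against 3.36 to 9.35.

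The 9 genes did not follow a common course after crush. In Schwann cells the ligand Shh appeared, Dhh and Ptch1 rose and Gli3 fell, while at day 3 Gli2 rose and Smo and Gli1 fell. In whole nerve Shh also appeared, Dhh fell at day 3 alone, and Smo, Gli1, Gli2 and Gli3 each fell on at least 1 day. Those whole nerve calls of Smo and the Gli genes were each lost without some library, as were the Schwann cell calls of Gli1 and Gli2. Macrophage markers rose in whole nerve, and their part in these falls was not tested. Between tissues the ligands Dhh and Shh were higher in Schwann cells after crush, and Ptch1, Smo, Hhip, Gli1 and Gli2 were higher in whole nerve at all 4 time points.

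**Figure D1:**
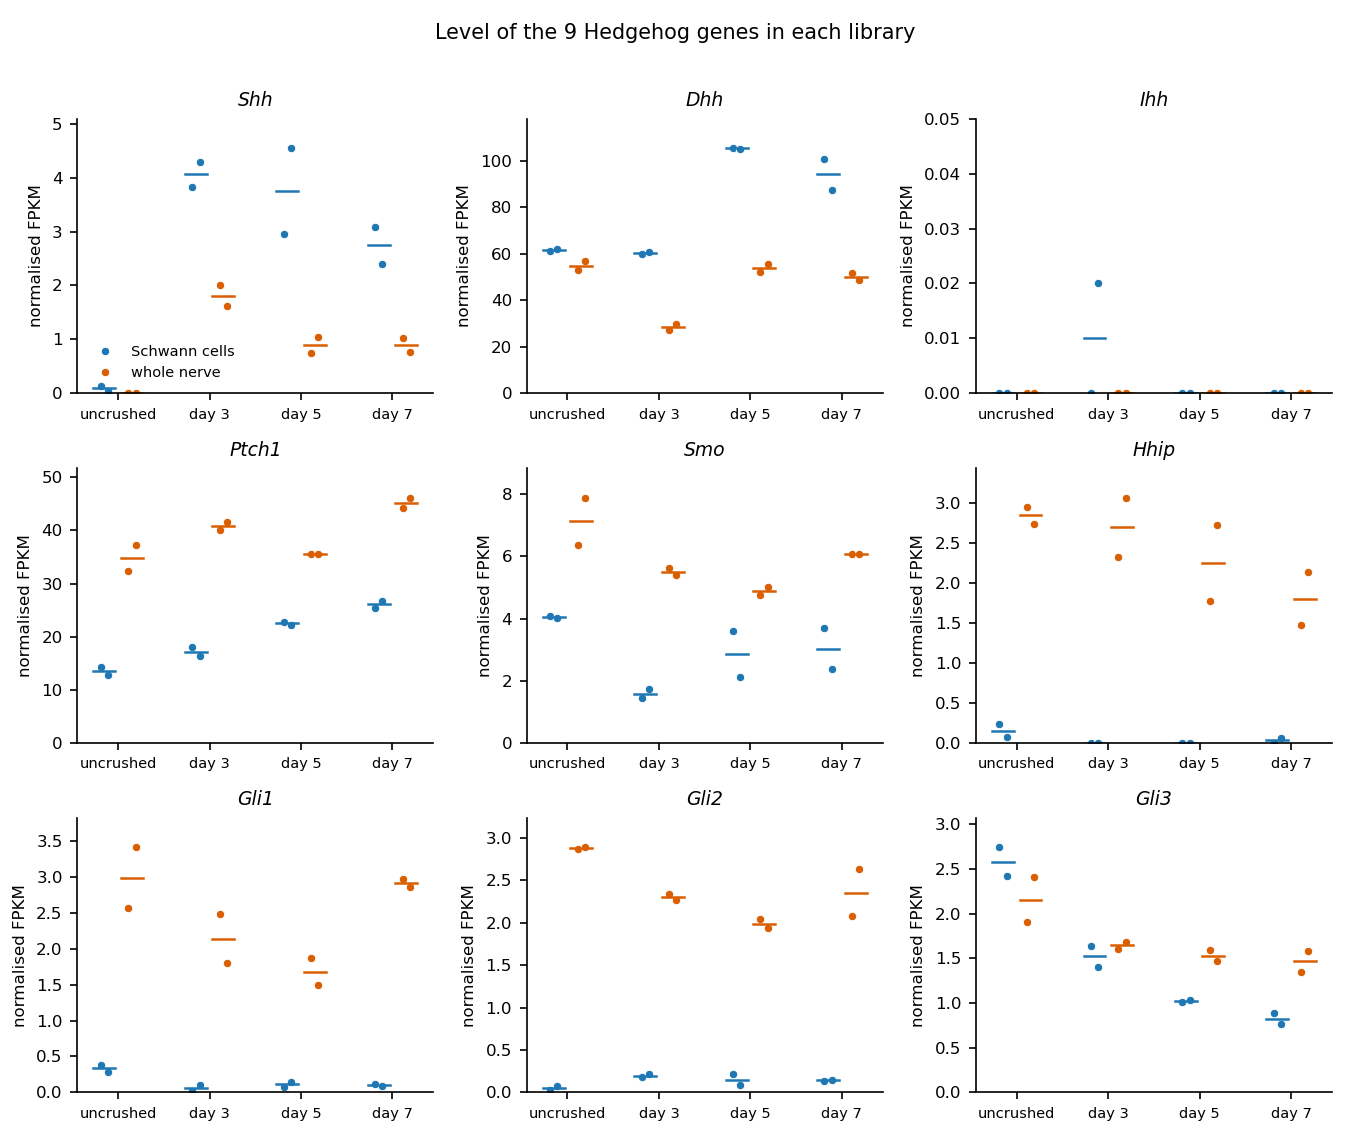
Normalised FPKM of the 9 genes (vertical axes, each from 0) in uncrushed nerve and at days 3, 5 and 7 after crush, for Schwann cells in blue and whole nerve in orange. Points are libraries and lines the means of 2. Shh is near 0 before crush in both tissues, Dhh is at 61.2 and 62.0 in Schwann cells and 52.8 and 56.8 in whole nerve before crush and further apart after it, and Hhip, Gli1 and Gli2 stay low in Schwann cells.

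Against uncrushed Schwann cells, 6 of the 7 Hedgehog genes that passed the count filter changed at day 3, where 52.5% of all genes tested changed (26.9% higher, 25.7% lower). Shh, Ptch1 and Gli2 rose and Smo, Gli1 and Gli3 fell. At day 5 there were 4 of 7, beside 54.6% of all genes (29.0% higher, 25.6% lower). The day 7 count was also 4 of 7, beside 46.9% (25.0% higher, 21.9% lower). At both later days the risers were Shh, Dhh and Ptch1, and Gli3 was the gene that fell. The counts at days 5 and 7 are close to the background, and the 3 comparisons share the uncrushed libraries. The median log2 fold change of the 7 genes was 0.00, 0.76 and 0.63 at the 3 days, against 0.00, 0.06 and 0.06 over all genes. The count at day 3 was 3 without day 3 replicate 1 and 4 without any 1 of the other libraries compared.

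In whole nerve 4 of the 8 tested genes changed at day 3, beside 45.6% of all genes (23.1% higher, 22.5% lower), with 1 rise (Shh) and 3 falls (Dhh, Smo and Gli2). At day 5 there were 5 of 8 beside 38.4% (18.9% higher, 19.5% lower), with Shh higher and Smo, Gli1, Gli2 and Gli3 lower. At day 7 there were 3 of 8 beside 31.3% (15.4% higher, 15.9% lower), with Shh and Ptch1 higher and Gli3 lower. The median log2 fold change was -0.44, -0.51 and -0.27, against 0.00, -0.01 and 0.02 over all genes, and it was the same with Shh placed at its counting bound. Leaving out 1 library at a time gave 2 to 5 genes at day 3, 2 to 5 at day 5 and 1 to 3 at day 7.

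Shh encodes Sonic hedgehog, the most widely studied ligand of the family. Uncrushed Schwann cells held 3 and 1 expected counts of it, or 0.135 and 0.0501 normalised FPKM. The day 3 libraries held 3.83 and 4.29 normalised FPKM. Those of day 5 held 2.96 and 4.55, and those of day 7 held 3.08 and 2.40. All 6 crushed libraries lay above both uncrushed ones, and the 3 days overlapped except that day 7 lay below day 3. The ratio to uncrushed, from counts summed over 2 libraries, was 42.5 (95% exact interval 16.4 to 157) at day 3. At days 5 and 7 it was 38.2 (14.7 to 141) and 28.9 (11 to 107). These intervals and the bounds below cover counting error only. Shh passed the edgeR test at every day, with adjusted p of 9.10e-06, 1.28e-05 and 3.86e-05. Its fitted log2 fold changes of 5.36, 5.23 and 4.79 became 6.20, 6.06 and 5.62 without uncrushed replicate 1, which held 3 of the 4 counts. No difference of Shh between days passed the test.

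In uncrushed whole nerve Shh had 0 counts in both libraries. The crushed whole nerve libraries held 2.00 and 1.62 normalised FPKM at day 3, followed on day 5 by 0.752 and 1.04, with day 7 libraries at 1.02 and 0.760. All 6 were above the uncrushed libraries, and both day 3 libraries were above all those of days 5 and 7. Against a floor of 3 counts over the uncrushed group, the level was at least 19.7-fold higher at day 3, at least 9.84-fold at day 5 and at least 9.69-fold at day 7. The edgeR adjusted p was 0.000102, 0.000675 and 0.000901. A record of a long noncoding RNA, LOC102546975, overlaps Shh in the annotation. It was at 0.0802 to 0.126 normalised FPKM in uncrushed and 1.49 to 3.19 in crushed Schwann cells, and at 0.171 to 0.256 and 0.285 to 0.673 in whole nerve. The strand setting of the counting is not given in the sources used here, and the part of this RNA in the Shh counts was not tested.

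Crushed Schwann cells held more Shh than crushed whole nerve at each day, without overlap of libraries. The log2 difference was 1.16 ± 0.30 at day 3, 2.05 ± 0.33 at day 5 and 1.62 ± 0.34 at day 7 (edgeR adjusted p = 0.00497, 0.000159 and 0.00137). Without day 3 whole nerve replicate 2 the day 3 difference was 1.02, with an adjusted p of 0.0519. The call in uncrushed tissue (edgeR adjusted p = 0.0480) rested on 4 counts against 0, and no fold is given for it. It was lost under DESeq2 (adjusted p = 0.101), without a count filter (0.0686) and without either whole nerve library or Schwann cell replicate 1 (0.122 to 0.221).

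Dhh encodes Desert hedgehog. It was the most abundant of the 9 genes in 7 of 8 groups, the exception being day 3 whole nerve, where Ptch1 lay above it. Schwann cells held 61.2 and 62.0 normalised FPKM uncrushed and 59.8 and 60.8 at day 3. They held 105.4 and 105.1 at day 5 and 100.7 and 87.4 at day 7. The day 5 and day 7 libraries were all above the uncrushed and day 3 libraries. The log2 fold change against uncrushed was 0.00 ± 0.10 at day 3, did not pass, and was slightly below 0 under 9 alternatives, among them upper quartile scaling, DESeq2 and leaving out any 1 library. It was 0.79 ± 0.10 at day 5 (edgeR adjusted p = 0.000106) and 0.63 ± 0.10 at day 7 (0.000585). Dhh also rose from day 3 to day 5, by 0.79 ± 0.10 (0.00142), and from day 3 to day 7, by 0.63 ± 0.10 (0.00162).

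In whole nerve Dhh stood at 52.8 and 56.8 normalised FPKM uncrushed, 27.3 and 29.7 at day 3, then 52.0 and 55.8 (day 5), and lastly 51.7 and 48.6 (day 7). Day 3 was the low point, and its libraries overlapped with no others. Dhh fell by 1.01 ± 0.09 on the log2 scale at day 3 (edgeR adjusted p = 1.23e-05). The change was -0.12 ± 0.09 at day 5 and -0.22 ± 0.09 at day 7, and neither passed. From day 3 it rose by 0.88 ± 0.09 to day 5 (0.000519) and by 0.79 ± 0.09 to day 7 (0.000278).

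The sum of the 9 Schwann cell markers in whole nerve was also lowest at day 3. It went from between 22360 and 26580 normalised FPKM uncrushed to between 2268 and 2452. Of the 9 genes, 2 were called higher and 5 lower at day 3, with a median log2 fold change of -0.69. The sum was still between 2882 and 3297 at day 5 and between 4333 and 4664 at day 7, when Dhh was back near its uncrushed level. At day 7, however, 2 of the 9 markers were called higher and 4 lower than uncrushed, with a median log2 fold change of 0.02. Sox10 was at 26.3 and 34.9 uncrushed and 27.1 and 26.5 at day 3. In bulk tissue fewer cells of a type and less RNA per cell cannot be told apart, and the part of the marker shift in the Dhh level was not tested. Tuba1c, a tubulin gene, overlaps Dhh in the annotation and was at 24.9 to 27.8 normalised FPKM in uncrushed and 54.6 to 118.3 in crushed Schwann cells. In whole nerve it was at 85.4 to 90.7 uncrushed and 65.0 to 182.9 after crush. Its part in the Dhh counts was not tested.

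Dhh in uncrushed Schwann cells exceeded whole nerve by 0.17 ± 0.09 on the log2 scale, which did not pass (edgeR adjusted p = 0.122), although upper quartile scaling gave 0.24 and an adjusted p of 0.0347. The uncrushed libraries of the 2 tissues did not overlap. After crush the difference was 1.08 ± 0.09 at day 3 (2.09e-07), 0.96 ± 0.09 at day 5 (7.53e-07) and 0.90 ± 0.09 at day 7 (1.52e-06). The effect of crush itself differed between tissues by 0.91 ± 0.13, 0.79 ± 0.13 and 0.73 ± 0.13 (interaction, adjusted p = 0.000148, 0.000427 and 0.000871). These calls for Dhh held without any 1 of the libraries compared.

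Ihh encodes Indian hedgehog, known from cartilage and bone. It had 1 count, in day 3 Schwann cell replicate 2, and 0 counts in the other 15 libraries. It did not pass the count filter and was not tested.

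Ptch1 encodes the main Patched receptor and is a target of the pathway. Schwann cells held 14.2 and 12.7 normalised FPKM uncrushed, 18.0 and 16.3 at day 3, with 22.8 and 22.2 on day 5 as against 25.4 and 26.8 on day 7. Each time point lay above the one before it, with no overlap of libraries. Against uncrushed, Ptch1 changed on the log2 scale by 0.38 ± 0.10 at day 3, 0.76 ± 0.10 at day 5 and 0.97 ± 0.10 at day 7 (edgeR adjusted p = 0.0118, 0.000208 and 5.88e-05). Ptch1 also rose from day 3 to day 7, by 0.59 ± 0.10 (0.00298). At day 3 the call was lost without uncrushed replicate 2 (0.27, adjusted p = 0.0750) and without day 3 replicate 1 (0.28, 0.132). The rise from day 3 to day 5, 0.38 ± 0.10 (0.0371), was lost without any 1 of its 4 libraries (0.31 to 0.46).

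Whole nerve held 32.5 and 37.3 normalised FPKM of Ptch1 uncrushed, 40.1 and 41.7 at day 3, followed on day 5 by 35.7 and 35.5, with day 7 libraries at 44.3 and 46.2. Days 3 and 7 lay above uncrushed and day 5 overlapped it. In deposited FPKM day 5 lay above uncrushed too, at 36.05 and 36.1 against 26.6 and 30.6. The log2 fold change was 0.16 ± 0.09 at day 3, which did not pass, and 0.28 ± 0.09 at day 7, which did (edgeR adjusted p = 0.0391). The day 7 call was lost without either day 7 library or uncrushed replicate 1 (0.19 to 0.34, adjusted p = 0.0549 to 0.234). Ptch1 rose by 0.35 ± 0.09 from day 5 to day 7 (0.0450), a call lost without any 1 of the 4 libraries (0.32 to 0.37).

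Whole nerve exceeded Schwann cells in Ptch1 at all 4 time points. The log2 differences were -1.37 ± 0.10 uncrushed, -1.26 ± 0.10 at day 3, -0.66 ± 0.09 at day 5 and -0.80 ± 0.09 at day 7 (edgeR adjusted p = 2.51e-08, 5.28e-08, 3.99e-05 and 6.83e-06). No libraries overlapped. The effect of crush was larger in Schwann cells by 0.71 ± 0.14 at day 5 (interaction, adjusted p = 0.00133) and by 0.57 ± 0.14 at day 7 (0.00612), and the difference at day 3 did not pass.

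Smo encodes Smoothened, the membrane protein that passes the signal on. Schwann cells held 4.07 and 4.02 normalised FPKM uncrushed and 1.46 and 1.72 at day 3. They held 3.59 and 2.12 at day 5 and 3.70 and 2.36 at day 7, so that replicate 1 of each later day was near the uncrushed level and replicate 2 was between it and day 3. Smo fell by 1.31 ± 0.30 on the log2 scale at day 3 (edgeR adjusted p = 0.00476). The values of -0.48 ± 0.29 at day 5 and -0.39 ± 0.29 at day 7 did not pass. Without day 5 replicate 1 the day 5 value was -0.91 and passed (adjusted p = 0.0464).

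In whole nerve Smo stood at 6.37 and 7.89 normalised FPKM uncrushed, 5.62 and 5.40 at day 3, then 4.77 and 5.02 (day 5), and lastly 6.08 and 6.07 (day 7). All 6 crushed libraries were below both uncrushed ones on this scale. In deposited FPKM only day 5 was, at 4.82 and 5.10 against 5.22 and 6.48 uncrushed. Day 3 was at 5.76 and 5.69 there, and day 7 at 6.16 and 6.23. Smo changed by -0.43 ± 0.15 at day 3, -0.64 ± 0.16 at day 5 and -0.32 ± 0.16 at day 7, and the first 2 passed (edgeR adjusted p = 0.0418 and 0.00904). The day 3 call was lost without either day 3 library or uncrushed replicate 2 (-0.44 to -0.27), under DESeq2 (-0.43, adjusted p = 0.143) and with no count filter (-0.39, 0.112). In a fit of all 16 libraries neither passed (-0.36 and -0.54, adjusted p = 0.229 and 0.0880). The day 5 call was lost without uncrushed replicate 2 (-0.47, 0.0704) and without day 5 replicate 1 (-0.58, 0.0606).

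Whole nerve held more Smo at each time point. The Schwann cell level differed by -0.81 ± 0.24, -1.79 ± 0.25, -0.78 ± 0.24 and -0.99 ± 0.24 on the log2 scale from uncrushed to day 7 (edgeR adjusted p = 0.00863, 2.29e-05, 0.0138 and 0.00317). The uncrushed call was lost without whole nerve replicate 2 (-0.65, adjusted p = 0.0661). The day 5 call was lost without day 5 replicate 2 of whole nerve (-0.74, 0.0620) or of Schwann cells (-0.45, 0.158). The fall at day 3 was larger in Schwann cells by -0.98 ± 0.34 (interaction, adjusted p = 0.0483), a call lost without any 1 of the 8 libraries (-1.12 to -0.80), with upper quartile scaling (-0.95, 0.0528) and under DESeq2 (-0.96, 0.0626).

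Hhip encodes a membrane-bound protein that binds Hedgehog ligands and limits their action. It had 8 and 2 counts in uncrushed Schwann cells, 0 in all 4 libraries of days 3 and 5, and 0 and 2 at day 7. It did not pass the filter in Schwann cells and was not tested there over time. Whole nerve held 2.95 and 2.74 normalised FPKM uncrushed, 2.33 and 3.07 at day 3, with 1.78 and 2.73 on day 5 as against 1.47 and 2.13 on day 7. Day 3 overlapped the uncrushed libraries, while days 5 and 7 lay below them. In deposited FPKM day 5 overlapped them too, at 1.80 and 2.77 against 2.42 and 2.25. The log2 fold change was -0.44 ± 0.28 at day 5 and -0.76 ± 0.29 at day 7 (edgeR adjusted p = 0.246 and 0.0714). The day 7 value passed with no count filter (-0.73, adjusted p = 0.0274).

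Every Schwann cell library was below every whole nerve library for Hhip. The log2 difference in uncrushed tissue was -4.17 ± 0.55 (edgeR adjusted p = 2.59e-05), and -5.34 without Schwann cell replicate 1. From summed counts and a floor of 3 counts over the group, the level was at least 92.6-fold lower in Schwann cells at day 3 and at least 65.9-fold lower at day 5. At day 7, 2 counts against 116 gave a ratio of 67.8 (95% exact interval 18.4 to 566). Fibroblast, macrophage and endothelial markers were also lower in Schwann cells, and their part in this difference was not tested. The fitted effect of crush differed between tissues at days 3 and 5 (interaction, adjusted p = 0.0177 and 0.0289), but its size depends on the prior count. It was lost at day 3 without uncrushed Schwann cell replicate 1 (-4.38) or day 3 Schwann cell replicate 2 (-5.47) and at day 5 without any of 5 libraries (-5.27 to -4.11).

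Gli1 encodes an activator whose own transcription responds to the pathway. Schwann cells held 0.377 and 0.291 normalised FPKM uncrushed, from 18 and 13 counts. They held 0.0198 and 0.101 at day 3, followed on day 5 by 0.0772 and 0.151, with day 7 libraries at 0.123 and 0.0938, from 1 to 10 counts each. All 6 crushed libraries lay below both uncrushed ones. Gli1 fell by 2.19 ± 0.73 on the log2 scale at day 3 (edgeR adjusted p = 0.0290), and -1.53 ± 0.70 at day 5 and -1.58 ± 0.72 at day 7 did not pass. This call was lost under DESeq2 (-2.32, adjusted p = 0.0781) and without either uncrushed library or day 3 replicate 1 (-2.36 to -1.61, 0.0745 to 0.136). Without day 3 replicate 2 the value was -3.99 (0.0236). In a fit of all 16 libraries both later days passed (-1.57 and -1.59, 0.0166 and 0.0208). Summed markers of 3 cell types other than Schwann cells were lower in the same libraries, and those of 2 others were not. From uncrushed to day 3 the pericyte and smooth muscle sum went from 38.4 to 49.5 down to 8.50 to 18.6, with 2 of 5 genes called lower and 0 higher. The perineurial sum went from 115.2 to 115.5 down to 57.4 to 60.2, with 1 of 3 tested lower, and the fibroblast sum from 316.0 to 320.5 down to 202.0 to 228.8, with 1 of 7 lower and 1 higher. The macrophage sum was 4.05 to 5.12 uncrushed and 2.55 to 12.8 at day 3, with 1 of 5 tested higher, and the endothelial sum was 1.55 to 1.80 and 0.802 to 4.11, with 1 of 3 lower. Smo, Gli3, Cdon and Gas1 fell in these libraries too, and the part of such cells in these falls was not tested.

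Whole nerve held 2.56 and 3.41 normalised FPKM of Gli1 uncrushed, 2.49 and 1.79 at day 3, then 1.87 and 1.5 (day 5), and lastly 2.97 and 2.86 (day 7). Days 3 and 5 were below uncrushed and day 7 lay within its range. In deposited FPKM day 3 overlapped uncrushed (2.55 and 1.89 against 2.10 and 2.80), and day 7 lay above it (3.01 and 2.93). Gli1 fell by 0.91 ± 0.23 at day 5 (edgeR adjusted p = 0.0101), and the day 3 value of -0.54 ± 0.22 did not pass (0.0735), although it did without uncrushed replicate 1 (-0.74, 0.0452). The day 5 call was lost without replicate 2 of either group (-0.75 and -0.69, 0.0700 to 0.0807) and in a fit of all 16 libraries (-0.82, 0.0545). Arhgap9 overlaps Gli1 in the annotation. It was at 0 to 0.312 normalised FPKM in Schwann cells, 1.63 to 3.66 in uncrushed whole nerve and 5.59 to 9.59 in crushed whole nerve, and its part in the Gli1 counts was not tested.

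Gli1 was lower in Schwann cells at all times, with log2 differences of -3.13 ± 0.37 uncrushed, -4.84 ± 0.43 at day 3, -3.88 ± 0.42 at day 5 and -4.70 ± 0.42 at day 7 (edgeR adjusted p = 4.42e-06, 2.67e-07, 2.48e-06 and 4.13e-07). Without day 3 Schwann cell replicate 2 the day 3 difference was -6.69. No library of either tissue overlapped with the other. The effect of crush did not pass a test of its difference between tissues at any day.

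Gli2 encodes the main activating Gli factor downstream of Smoothened. Schwann cells held 0.0290 and 0.0702 normalised FPKM uncrushed, from 3 and 6 counts, and 0.178 and 0.211 at day 3. They held 0.212 and 0.0848 at day 5 and 0.133 and 0.15 at day 7. All 6 crushed libraries were above both uncrushed ones. Gli2 rose by 1.92 ± 0.65 at day 3 (edgeR adjusted p = 0.0324), and 1.64 ± 0.67 at day 5 and 1.49 ± 0.68 at day 7 did not pass (0.0608 and 0.0972). The day 3 call was lost under DESeq2 (1.90, adjusted p = 0.0818) and without either day 3 library or uncrushed replicate 1 (1.42 to 1.96, 0.0748 to 0.182), and the value was 2.57 without uncrushed replicate 2. The day 5 value passed with no count filter (1.64, adjusted p = 0.0431). Leaving out 1 library gave 0.78 to 2.30 at day 5 and 1.00 to 2.16 at day 7. Both later days passed in a fit of all 16 libraries (1.63 and 1.48, 0.0136 and 0.0319).

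In whole nerve Gli2 ran the other way, from 2.87 and 2.89 normalised FPKM uncrushed to 2.33 and 2.26 at day 3, with 2.04 and 1.94 on day 5 as against 2.07 and 2.63 on day 7. All 6 crushed libraries were below both uncrushed ones. The log2 fold change was -0.45 ± 0.15, -0.63 ± 0.16 and -0.42 ± 0.16, and days 3 and 5 passed (edgeR adjusted p = 0.0351 and 0.00957). The day 3 call was lost without any 1 of its 4 libraries (-0.47 to -0.42), under DESeq2 (-0.45, 0.0891) and with no count filter (-0.42, 0.0601), and the day 5 call without day 5 replicate 2 (-0.60, 0.0605). At day 7 the value passed without day 7 replicate 2 (-0.63, 0.0186). In a fit of all 16 libraries neither passed (-0.39 and -0.53, 0.208 and 0.0934).

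Schwann cells held less Gli2 than whole nerve, by log2 differences of -5.88 ± 0.37 uncrushed, -3.60 ± 0.29 at day 3, -3.72 ± 0.30 at day 5 and -4.08 ± 0.31 at day 7 (edgeR adjusted p = 7.84e-09, 8.25e-08, 1.16e-07 and 7.15e-08). The uncrushed difference was -6.55 without Schwann cell replicate 2, and the day 5 difference was -4.59 without Schwann cell replicate 1. Its response to crush differed by 2.28 ± 0.53, 2.17 ± 0.55 and 1.81 ± 0.57 (interaction, adjusted p = 0.00551, 0.00898 and 0.0305). All 3 interactions were lost without uncrushed Schwann cell replicate 1, at 1.78, 1.67 and 1.31 (adjusted p = 0.0524, 0.0727 and 0.177), and they were 2.95, 2.84 and 2.48 without replicate 2. The day 5 interaction was also lost without day 5 Schwann cell replicate 1 (1.3, 0.15), and the day 7 interaction without any of 5 further libraries (1.62 to 1.88). Gli2 had 3 to 36 counts in a Schwann cell library.

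Gli3 encodes the factor that acts mostly as the repressor of the pathway. Schwann cells held 2.74 and 2.42 normalised FPKM uncrushed, 1.63 and 1.41 at day 3, followed on day 5 by 1.01 and 1.04, with day 7 libraries at 0.883 and 0.760. The level was lower at each later time point, with no overlap of libraries. Gli3 changed on the log2 scale by -0.73 ± 0.18, -1.31 ± 0.18 and -1.63 ± 0.19 at the 3 days (edgeR adjusted p = 0.00651, 0.000264 and 0.000105). Gli3 also fell by 0.89 ± 0.19 from day 3 to day 7 (0.00899). The day 3 call was lost without day 3 replicate 2, the library with more macrophage and endothelial signal (-0.62, adjusted p = 0.0681). The change from day 3 to day 7 was lost without day 3 replicate 1 (-0.78, 0.0706) or day 7 replicate 2 (-0.80, 0.0502).

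In whole nerve Gli3 stood at 1.90 and 2.41 normalised FPKM uncrushed, 1.61 and 1.68 at day 3, then 1.59 and 1.47 (day 5), and lastly 1.35 and 1.58 (day 7). All crushed libraries were below both uncrushed ones on this scale. In deposited FPKM each day overlapped uncrushed, as with 1.65 and 1.77 at day 3 against 1.56 and 1.98. The log2 fold changes were -0.45 ± 0.18, -0.59 ± 0.19 and -0.64 ± 0.19, and days 5 and 7 passed (edgeR adjusted p = 0.0304 and 0.0264). Both were lost under DESeq2 (adjusted p = 0.122 and 0.0977). Without uncrushed replicate 2 they were lost too, at -0.41 and -0.46 (0.184 and 0.154). The day 5 call was further lost without either day 5 library (-0.63 and -0.52), and the day 7 call without day 7 replicate 1 (-0.51). The day 3 value passed without uncrushed replicate 1 (-0.61, 0.0448).

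The difference of Gli3 between tissues did not pass in uncrushed nerve (0.27 ± 0.18) or at day 3 (-0.12 ± 0.18). It was lower in Schwann cells at day 5 (-0.58 ± 0.18, edgeR adjusted p = 0.0169) and at day 7 (-0.84 ± 0.19, 0.00216). The day 5 call was lost without any of 3 libraries (-0.59 to -0.52, adjusted p = 0.0608 to 0.0916) and with upper quartile scaling (-0.44, 0.0555) or no count filter (-0.57, 0.0619). Its response to crush differed by -0.39 ± 0.25, -0.84 ± 0.26 and -1.10 ± 0.26, which passed at day 5 (interaction, 0.0242) and day 7 (0.00641). The day 5 interaction was lost without any of 5 libraries (-0.86 to -0.66), with no count filter (-0.84, 0.0747) and in a fit of the 8 libraries it compares (-0.77, 0.0704). An annotated pseudogene, LOC120098021, overlaps Gli3 and was not used here.

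**Figure D2:**
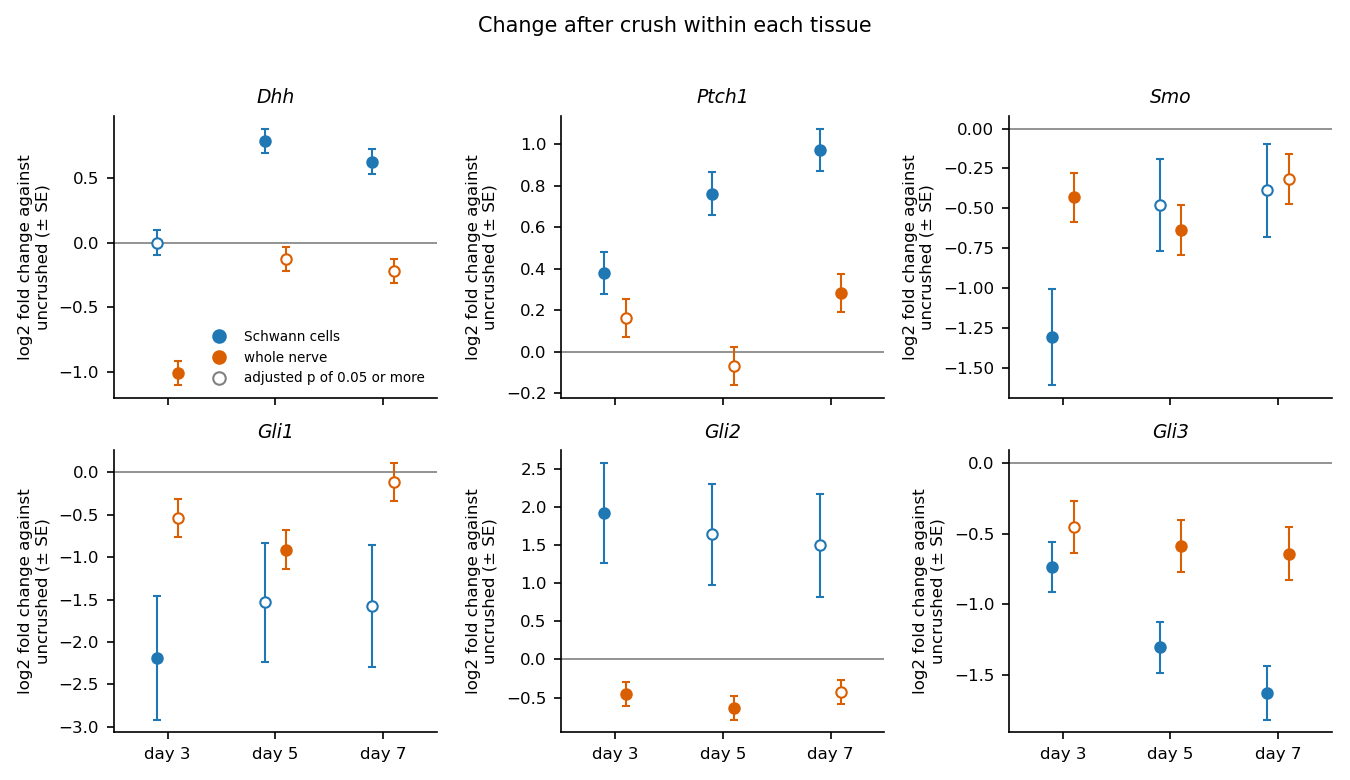
Log2 fold change against uncrushed (vertical axes, ± SE) at days 3, 5 and 7 for 6 of the genes, within Schwann cells (blue) and within whole nerve (orange). Filled points have an edgeR adjusted p below 0.05. In Schwann cells Ptch1 climbs to 0.97 and Gli3 drops to -1.63 by day 7, and Dhh falls in whole nerve at day 3 alone.

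Between days, 2 of 7 genes changed from day 3 to day 5 in Schwann cells (Dhh and Ptch1) beside 12.5% of all genes (6.09% higher, 6.36% lower). From day 3 to day 7 there were 3 of 7 (Dhh, Ptch1 and Gli3) beside 21.0% (10.2% higher, 10.7% lower). From day 5 to day 7 edgeR called 0 of 7 beside 1.95% (1.18% higher, 0.769% lower), with 0 at an unadjusted p below 0.05 and 0 by DESeq2. In whole nerve 1 of 8 rose in each case. Dhh rose from day 3 to day 5, beside 11.5% of all genes (5.68% higher, 5.87% lower), and from day 3 to day 7, beside 21.2% (9.85% higher, 11.4% lower). Ptch1 rose from day 5 to day 7, beside 7.40% (3.65% higher, 3.75% lower).

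By level within Schwann cells the order was Dhh, then Ptch1, in every group, and these 2 never overlapped. Uncrushed, Smo and Gli3 followed, and the levels of Hhip, Shh and Gli2 at the bottom overlapped with their neighbours. After crush Shh held rank 3 at days 3 and 5 and rank 4 at day 7, overlapping with Smo at days 5 and 7. In whole nerve Smo held rank 3 in all 4 groups without overlap with its neighbours. Below it Hhip, Gli1, Gli2 and Gli3 lay between 1.47 and 2.99 on average, and many of these neighbours overlapped.

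Of the 8 genes tested between tissues, 6 differed in uncrushed nerve beside 64.4% of all genes (29.1% higher, 35.3% lower in Schwann cells). There were 7 of 8 at day 3 beside 57.3% (24.5% higher, 32.8% lower). All 8 differed at day 5, beside 51.7% (23.2% higher, 28.4% lower), and all 8 at day 7, beside 51.0% (22.4% higher, 28.7% lower). At each time 5 or 6 of them were lower in Schwann cells, and the 1 or 2 that were higher were Shh and, after crush, Dhh. The median log2 difference of the 8 genes was -1.09, -1.52, -0.72 and -0.91, against -0.10, -0.11, -0.03 and -0.03 over all genes. For the difference of the crush effect, 4 of 8 passed at day 3 beside 26.0% of all genes (12.3% higher, 13.7% lower). It was 5 of 8 at day 5 beside 27.5% (12.6% higher, 14.9% lower) and 4 of 8 at day 7 beside 26.0% (11.6% higher, 14.4% lower).

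**Figure D3:**
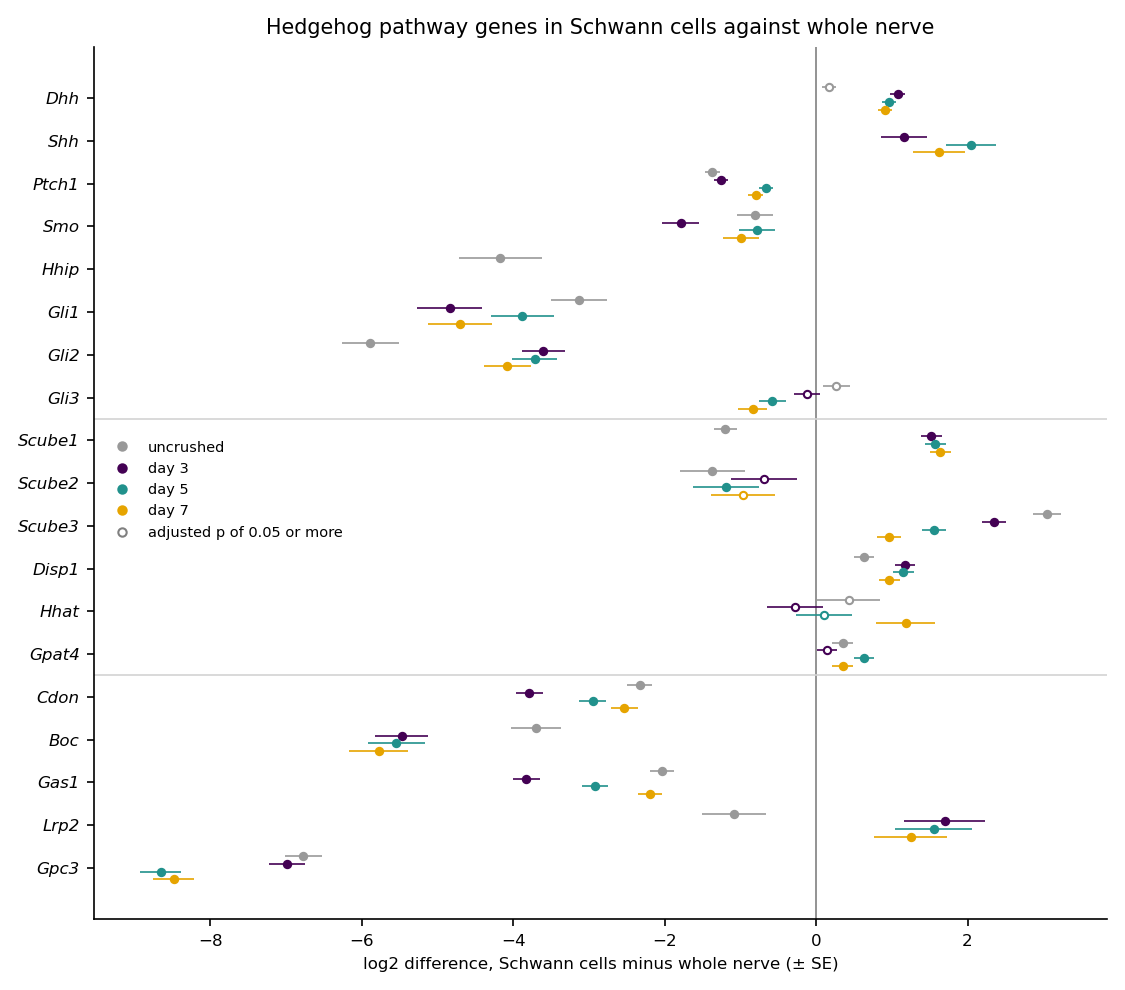
Log2 difference between Schwann cells and whole nerve (horizontal axis, ± SE) for 8 Hedgehog genes (top), genes of ligand processing and release (middle) and co-receptors (bottom), coloured by time point. Filled points have an edgeR adjusted p below 0.05, and comparisons with a group at the count floor and Disp2 are left out. Dhh, Shh, Scube1 and Disp1 lie right of 0 after crush, and the co-receptors other than Lrp2 lie left of it at all times.

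The wider pathway was followed in 47 further genes in 4 lists, which were chosen with earlier results of these data known. In Schwann cells 9 of the 41 tested rose and 11 fell at day 3, 9 rose and 13 fell at day 5, and 7 rose and 12 fell at day 7. In whole nerve 11 of 47 rose and 13 fell at day 3, 7 rose and 11 fell at day 5, and 6 rose and 9 fell at day 7. These shares, 48.8%, 53.7% and 46.3% in Schwann cells and 51.1%, 38.3% and 31.9% in whole nerve, are near the background given above.

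Among the 7 genes of ligand processing and release, Scube1 had the largest change in Schwann cells. Scube proteins are secreted and help lipid-bearing Hedgehog ligands leave the cell. Schwann cells held 3.77 and 3.88 normalised FPKM of Scube1 uncrushed, 24.7 and 26.0 at day 3, with 31.5 and 33.5 on day 5 as against 29.8 and 29.6 on day 7. Scube1 rose by 2.76 ± 0.10, 3.11 ± 0.10 and 2.98 ± 0.10 on the log2 scale (edgeR adjusted p = 6.43e-08, 7.39e-08 and 1.24e-07). Whole nerve held between 8.14 and 12.5 in all 8 libraries, and no day passed the test there. Relative to whole nerve, Scube1 in Schwann cells was lower before crush (-1.20 ± 0.16) and higher after it (1.52 ± 0.14, 1.58 ± 0.14 and 1.64 ± 0.14). The effect of crush differed by 2.72 ± 0.21, 2.77 ± 0.21 and 2.84 ± 0.21 (interaction, adjusted p = 5.08e-07, 4.54e-07 and 4.32e-07).

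Scube3 took another course. Schwann cells held 4.40 and 3.72 normalised FPKM uncrushed, 5.56 and 5.91 at day 3, followed on day 5 by 3.97 and 3.68, with day 7 libraries at 2.99 and 2.84. It rose by 0.52 ± 0.12 at day 3 (edgeR adjusted p = 0.00534) and fell by 0.46 ± 0.13 at day 7 (0.0139), the latter lost without any of 3 libraries (-0.48 to -0.34). In whole nerve it rose at each day, by 1.10 ± 0.24, 1.29 ± 0.24 and 1.5 ± 0.24. Scube3 was higher in Schwann cells at all times, by 3.05 ± 0.19 uncrushed, 2.35 ± 0.16 at day 3, 1.56 ± 0.16 at day 5 and 0.96 ± 0.16 by day 7. Its response to crush differed by -1.48 ± 0.25 at day 5 and -2.09 ± 0.25 at day 7 (interaction, adjusted p = 0.000465 and 2.95e-05).

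Disp1 encodes Dispatched, which releases the ligands from the cell that makes them. Schwann cells held 9.40 and 9.42 normalised FPKM uncrushed and between 3.94 and 5.46 after crush. Whole nerve held 6.79 and 8.22 uncrushed and between 2.10 and 2.75 after crush. Disp1 fell at each day in both tissues. Its log2 fold change was -0.88 ± 0.14, -1.28 ± 0.14 and -1.14 ± 0.14 in Schwann cells and -1.53 ± 0.14, -1.93 ± 0.14 and -1.59 ± 0.14 in whole nerve. It was higher in Schwann cells at all times, by 0.63 ± 0.13, 1.17 ± 0.14, 1.15 ± 0.14 and 0.97 ± 0.14. Among these 4 differences the largest edgeR adjusted p was 0.000772, in uncrushed nerve.

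The other genes of this list were at low or steady levels. Disp2, a relative of Disp1, had at most 7 counts in a Schwann cell library and did not pass the filter there. In whole nerve it rose by 2.57 ± 0.59, 3.00 ± 0.59 and 2.47 ± 0.61, from 2 and 4 counts uncrushed. The day 3 and day 7 calls were lost without uncrushed replicate 1 (1.90 and 1.79, adjusted p = 0.0584 and 0.102), and the day 7 call also without day 7 replicate 1 (2.26). The day 5 value was 2.32 without uncrushed replicate 1, and the 3 values were 3.42, 3.85 and 3.32 without replicate 2. Scube2 fell by 1.40 ± 0.38 in whole nerve at day 3 (edgeR adjusted p = 0.0118), lost without replicate 2 of either group (-1.18 and -1.01). Hhat, which attaches palmitate to the ligands, and Gpat4, a glycerol phosphate acyltransferase, did not pass against uncrushed in either tissue at any day.

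The co-receptors Cdon, Boc and Gas1 bind Hedgehog ligands and aid their presentation to Patched. Cdon was at 1.80 and 1.55 normalised FPKM in uncrushed Schwann cells and between 0.713 and 0.921 after crush, against between 4.99 and 10.3 in whole nerve. In Schwann cells it fell on all 3 days, changing by -1.45 ± 0.18, -1.23 ± 0.18 and -0.94 ± 0.18 on the log2 scale (edgeR adjusted p = 0.000111, 0.000327 and 0.00200). In whole nerve it fell by 0.73 ± 0.16 at day 5, a call lost without day 5 replicate 2 (-0.52, adjusted p = 0.0507), and by 0.85 ± 0.16 at day 7. The day 3 effect differed between tissues by -1.45 ± 0.24 (interaction, adjusted p = 0.000464).

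Gas1 stood at 4.63 and 4.59 normalised FPKM in uncrushed Schwann cells, 1.28 and 1.14 at day 3, then 2.59 and 2.14 (day 5), and lastly 3.34 and 4.78 (day 7). Day 3 was lowest and day 7 overlapped the uncrushed libraries. Gas1 fell by 1.91 ± 0.22 at day 3 and by 0.94 ± 0.21 at day 5 (edgeR adjusted p = 6.07e-05 and 0.00362). Whole nerve held between 16.6 and 21.1 in all 8 libraries with no call. The crush effect differed by -1.80 ± 0.24 at day 3 (interaction, 7.29e-05) and by -0.89 ± 0.23 at day 5 (0.0105), the latter lost without day 5 Schwann cell replicate 2 (-0.76, 0.0549).

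Whole nerve held more of all 3 co-receptors at the 4 time points, with differences of the Schwann cell level of -3.78 to -2.33 for Cdon, -3.83 to -2.03 for Gas1 and -5.78 to -3.70 for Boc. Boc had few counts in Schwann cells, and leaving out Schwann cell replicate 1 or 2 gave -6.24 and -4.76 at day 3 and -4.95 and -6.97 at day 7. Gpc3, a glypican that binds Hedgehog ligands, had the largest difference of the list, -8.65 to -6.77, with -7.68 in place of -6.98 at day 3 without Schwann cell replicate 2. It was at 189.5 to 259.4 normalised FPKM in whole nerve and 0.483 to 2.16 in Schwann cells. Gpc3 fell in Schwann cells at days 5 and 7 (-1.62 ± 0.44 and -1.44 ± 0.44), calls lost without any of 2 and 3 libraries (-1.48 to -1.29 and -1.62 to -1.23).

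Lrp2, a large endocytic receptor, was the one member of its list that crossed over. Whole nerve held 0.562 and 0.585 normalised FPKM uncrushed and between 0.0190 and 0.117 after crush, against 0.232 and 0.311 and between 0.0604 and 0.199 in Schwann cells. Lrp2 fell in Schwann cells at day 3, by 1.43 ± 0.39 on the log2 scale (edgeR adjusted p = 0.0111), and -0.91 ± 0.37 at day 5 and -0.53 ± 0.37 at day 7 did not pass. The day 3 call was lost without replicate 2 of either group (-1.23 to -0.94, adjusted p = 0.0598 to 0.0860), and the value was -2.04 without day 3 replicate 1. It fell at all 3 days in whole nerve, with log2 fold changes of -4.32 ± 0.52, -3.67 ± 0.50 and -2.98 ± 0.48 (edgeR adjusted p = 7.56e-05, 0.000243 and 0.000949). The day 5 value was -4.32 without day 5 replicate 1, and the day 7 value was -2.38 and -3.95 without day 7 replicates 1 and 2. The effect of crush differed by 2.78 ± 0.68, 2.64 ± 0.66 and 2.34 ± 0.64 (interaction, adjusted p = 0.00774, 0.00811 and 0.0152). The last was lost without uncrushed Schwann cell replicate 1 or day 7 whole nerve replicate 1 (2.14 and 1.76), and was 3.33 without day 7 whole nerve replicate 2, and the day 5 value was 3.31 without day 5 whole nerve replicate 1. At these levels its differences between tissues were each lost without some libraries, and those at days 5 and 7 were 2.21 and 2.23 without day 5 replicate 1 and day 7 replicate 2 of whole nerve.

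**Figure D4:**
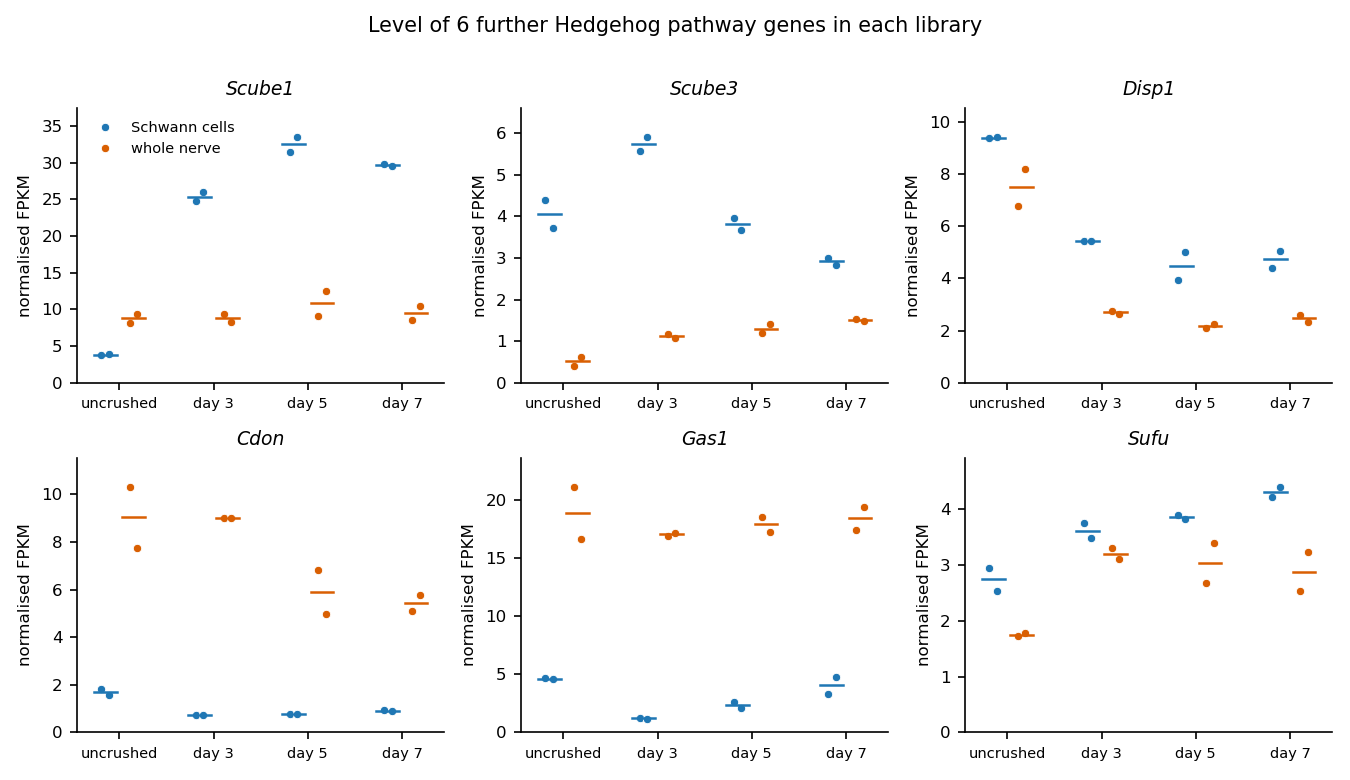
Normalised FPKM (vertical axes, each from 0) of 6 further genes of the pathway by time point, with Schwann cells in blue and whole nerve in orange. Points are libraries and lines the means of 2. Scube1 rises in Schwann cells from below 4 to between 24.7 and 33.5, while whole nerve stays between 8.14 and 12.5.

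Among the 22 cytoplasmic and ciliary transducers, 6 rose and 4 fell in Schwann cells at day 3, and 5 rose and 6 fell in whole nerve. Called were thus 10 and 11 of 22, beside 52.5% and 45.6% of all genes, and so near the background. Sufu, which holds Gli factors in the cytoplasm, rose in Schwann cells from 2.95 and 2.54 normalised FPKM to 4.21 and 4.40 at day 7. Its log2 fold change was 0.43 ± 0.14, 0.51 ± 0.14 and 0.67 ± 0.14 (edgeR adjusted p = 0.0252, 0.0101 and 0.00320). In whole nerve it rose by 0.80 ± 0.19, 0.70 ± 0.19 and 0.63 ± 0.19 (0.00545, 0.0145 and 0.0301). The day 3 call in Schwann cells was lost without any of 3 libraries (0.29 to 0.49) and the day 5 call without uncrushed replicate 2 (0.39). In whole nerve the day 5 call was lost without uncrushed replicate 1 or day 5 replicate 2 (0.67 and 0.52), and the day 7 call without any of 3 libraries (0.45 to 0.66). DESeq2 made neither the day 3 nor the day 5 call in Schwann cells (0.39 and 0.46, adjusted p = 0.137 and 0.0712), nor the day 7 call in whole nerve (0.63, 0.0677). Upper quartile scaling, no count filter and a fit of all 16 libraries each lost the day 3 call in Schwann cells too (0.34 to 0.42, 0.0520 to 0.0610). Kif7, a ciliary kinesin that acts on Gli factors, stood between 1.44 and 2.52 normalised FPKM in all 16 libraries with no call.

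At day 3 the transducer with the highest log2 fold change in Schwann cells was Btrc (1.28 ± 0.13), part of the ubiquitin ligase that processes Gli factors, and the lowest was Gpr161 (-1.19 ± 0.22), a ciliary receptor that restrains the pathway. In whole nerve the highest was Stk36 (0.84 ± 0.24), a kinase called Fused, and the lowest was Spop (-1.29 ± 0.14), a ubiquitin ligase adaptor for Gli factors. These 4 passed the edgeR test (adjusted p = 2.35e-05, 0.00153, 0.0170 and 4.25e-05). The call for Stk36 was lost without uncrushed replicate 1 or day 3 replicate 1 (0.76 and 0.60) and under DESeq2 (0.85, adjusted p = 0.0628).

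Of the 12 further target genes, 1 rose and 3 fell among the 8 tested in Schwann cells at day 3, and 3 rose and 4 fell in whole nerve. Called were thus 4 of 8 and 7 of 12, beside 52.5% and 45.6% of all genes. The riser in Schwann cells was Ccnd1, a cyclin of many growth pathways, from 35.9 and 41.6 normalised FPKM to 350.9 and 329.6. Its log2 fold change was 3.17 ± 0.12 there and 2.60 ± 0.11 in whole nerve (edgeR adjusted p = 7.77e-08 and 3.61e-08). Foxf1, a forkhead factor, had the lowest value in Schwann cells, with 34 counts over the uncrushed libraries and 1 at day 3, a ratio of 54.4 (95% exact interval 9.13 to 2211). In whole nerve the lowest was Foxl1 (-1.03 ± 0.74), which did not pass.

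Genes with the pattern most like each of the Hedgehog genes were sought by Pearson correlation of log2 CPM over the 16 libraries. This is a description in which the libraries fall into groups of tissue and injury. For Shh they included LOC100910286 (0.982) and Runx2 (0.980), and for Dhh they were Mical1 (0.97), Arhgap12 (0.951) and Hspa2 (0.948). For Ptch1 they were Acsf2 (0.980), Lmo7 (0.976) and Mn1 (0.974), and for Smo they were Slc15a2 (0.952), Kdelc1 (0.95) and Adamtsl3 (0.949). For Hhip they were Gpr165 (0.995), Tshz2 (0.988) and Plac9 (0.988). For Gli1 they were Arhgap28 (0.987), Rab27a (0.985) and Cpz (0.982), for Gli2 Cercam (0.992), Tlr4 (0.990) and Spint2 (0.990), and for Gli3 Col8a2 (0.959), Crybg3 (0.959) and Cobl (0.955). No gene named here was shared by 2 of the Hedgehog genes.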

How the data were processed

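RNA of 8 Schwann cell and 8 whole nerve samples was sequenced from amplified cDNA. The authors aligned reads with STAR to Rnor_6.0 and estimated with RSEM the deposited expected counts, FPKM and TPM of 31038 genes. Expected counts were deposited without normalization, FPKM values were scaled by the authors to gene length and library, and TPM values were scaled by the authors to a fixed total. The deposited count matrix holds the same estimates. A table of module assignments has 8 columns of per-sample values that name no tissue, and it was not used.

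Expected counts were rounded, filtered with filterByExpr and scaled by TMM. Differences were assessed by edgeR 4.0.16 (quasi-likelihood F-test, R 4.3.3) with Benjamini-Hochberg adjustment at 0.05 over 14961 genes in Schwann cells, 15831 in whole nerve and 16829 in the fit of all 16 libraries. Groups came from the sample labels. FPKM was to be printed as deposited, but in crushed whole nerve it lay 0.31 to 0.34 log2 units above the TMM scale relative to uncrushed, so it was rescaled after the data had been seen. An exact permutation test of 2 against 2 libraries cannot go below p = 0.333 and was not used. Bounds use a floor of 3 counts over the 2 libraries of a group. The tests were checked on simulated data.

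The 9 genes and all lists were chosen with earlier results of these data known. Named besides the 9 are the genes of ligand processing and release, the co-receptors, Sufu, Kif7, the highest and lowest transducer and target at day 3 in each tissue and the 3 genes most like each member. Some genes that this rule names are not reported here. Genes that overlap a member in the annotation table of GRCr8, which served for names only, and single cell type markers were added with their values already known. Alternatives were DESeq2 1.42.0, upper quartile scaling, no filter, at least 10 counts in every library, a replicate block, other sets of libraries and leaving out 1 library. Same-numbered libraries of different groups deviated with r between -0.0552 and 0.0758 over 28 pairs of groups, so they shared no visible shift over all genes. Whether they share a preparation cannot be seen from this. Python 3.11.15, pandas 2.3.3, scipy 1.17.1 and matplotlib 3.10.9 made the tables and plots.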

Additional observations from a re-analysis of the deposited data

Results flagged for a closer look

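Results are listed here because the effect of crush in Schwann cells differed from that in whole nerve by the interaction test of edgeR. Each value is the log2 fold change in Schwann cells minus that in whole nerve, from 2 libraries a group, and all comparisons of a tissue share its uncrushed libraries.

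Dhh had a positive difference at all 3 days, 0.91 at day 3, 0.79 at day 5 and 0.73 at day 7. Gli2 did as well, with 2.28 at day 3, 2.17 at day 5 and 1.81 at day 7, all lost without uncrushed Schwann cell replicate 1. Ptch1 had 0.71 at day 5 and 0.57 at day 7.

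Gli3 had a negative difference, -0.84 at day 5 and -1.10 at day 7, and the day 5 call was lost without any of 5 libraries. Smo had -0.98 at day 3, a call lost without any 1 of the 8 libraries compared. For Hhip the fitted differences were -5.54 at day 3 and -5.27 at day 5, and since crushed Schwann cells had 0 counts of Hhip at both days these sizes depend on the prior count.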

How the results depend on the processing

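Of 2044 log2 values of named genes under an alternative, 1831 kept their direction and side of the threshold, 191 lost a call, 13 gained one and 9 changed sign. Every change of sign was Dhh in Schwann cells at day 3, near 0 in each case: -0.0802 with upper quartile scaling, -0.0044 with no filter, -0.0492 with at least 10 counts in every library, -0.0303 with DESeq2 and -0.0337 in the fit of all 16 libraries, and -0.0196 to -0.0042 on leaving out 1 library. Of 73 called values of the 9 genes, 46 held without any 1 library and 4 were lost whichever was left out.

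The number of the 9 genes called moved by over 1.5 times as follows. At least 10 counts in every library, which tests fewer genes, gave 3 in Schwann cells at day 3, 2 in whole nerve from day 5 to day 7, 2, 3, 4 and 4 between tissues from uncrushed to day 7, and 2 and 3 for the difference of the crush effect at days 3 and 5. The fit of all 16 libraries gave 7 in Schwann cells at day 5 and 2 in whole nerve at days 3 and 5. In whole nerve at day 3, no filter and DESeq2 each gave 2, and no filter gave 2 from day 5 to day 7. The cause was not tested. Leaving out 1 library gave, in Schwann cells, 3 to 4 at day 3 and 1 from day 3 to day 5. In whole nerve it gave 2 to 5 at day 3, 2 to 5 at day 5, 1 to 3 at day 7 and 0 from day 5 to day 7. For the difference of the crush effect it gave 1 to 3 at day 3 and 2 to 5 at day 5.

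Same-numbered libraries shared no visible shift, and whether the numbers pair the samples is not known. A replicate block changed 4 of 198 values, among them Ptch1 in Schwann cells from day 3 to day 5 (0.38, adjusted p = 0.0509), which left 1 gene called there, Smo for the difference of the crush effect at day 3 (-0.97, 0.0564) and Hhip in whole nerve at day 7 (-0.79, 0.0314). With 2 pools a group and few counts of Shh, Hhip, Gli1 and Gli2 in Schwann cells, depth limits what those genes can show. TPM and deposited FPKM differ from the levels given by 1 factor per library, so the order of genes within a library could not change. Changes over time in whole nerve do depend on that factor. The separation of libraries there differed in deposited FPKM for Ptch1, Smo, Hhip, Gli1, Gli2 and Gli3. The alternative of levels from the module table was not run.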
